A study of Mus musculus with 28 samples.

Results

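The Dlk1-Dio3 locus is an imprinted domain on mouse chromosome 12 whose genes are read from only 1 of the parental alleles. The paternal allele expresses the protein-coding genes Dlk1, Rtl1 and Dio3, and the maternal allele expresses a run of non-coding RNAs, namely Meg3, Rian (which hosts small nucleolar RNAs) and Mirg (which hosts many microRNA hairpins). In mouse embryonic stem (ES) cells and induced pluripotent cells the maternal RNAs are known to be lost in some lines through gain of methylation at the imprint control region, while the paternal genes remain on. The 9 members were chosen by gene symbol, namely Meg3, Rian, Mirg, Dlk1, Dio3 and the hairpins Mir377, Mir382, Mir380 and Mir300. The choice was made with earlier results of these data known. Of the 9 members, 8 had a probe set annotated to them alone, among 19938 genes with such a probe set. Mirg was read only by a probe set annotated to Mirg and Mir410 together, so its values are given without a test and are assigned to neither gene.

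The series used 28 Affymetrix mouse gene arrays (Mouse Gene ST) on ES cell RNA to study hotspot mutations of DICER1, the ribonuclease that cuts mature microRNAs out of hairpin precursors. All transgenes were carried by Dicer-/- cells. The mutant transgenes were D1709A (n = 4 arrays), D1709N (n = 2), E1705K (n = 3), D1810Y (n = 3) and E1813Q (n = 2), set against wild-type (WT) DICER1 (n = 6) and an eGFP vector (n = 3). Untransduced Dicer-/- cells (Dicer-null, n = 3) and Dicer+/+ cells (the Dicer WT line, n = 2) completed the set. D1709N, E1813Q and 2 of the WT DICER1 arrays used the pLD-puro-PGKnvA vector and the other transgenes pLD-puro-ENvA. The labels name 1 parental line for each genotype, so other differences between these lines cannot be told apart from the loss of Dicer. Nothing in the labels says that replicates were separate cultures, and the p-values measure only the spread between these arrays.

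Values are log2 expression values, in which a difference of 1 is a doubling of signal, and a gene was called at an adjusted p under 0.05 (limma, Benjamini-Hochberg over all 19938 genes). Dicer1, the targeted gene, read 9.27 ± 0.04 in Dicer-null cells (SD, n = 3) and 10.68 ± 0.05 in the Dicer WT line (SD, n = 2). It read between 8.91 and 9.31 with a DICER1 transgene, and no source used here says whether this probe set detects the transgene. All 9 ES cell markers lay above 6.42, the 30th percentile of all genes, in every group, and their mean lay between 11.78 and 12.27 on single arrays. No background level was measured on the arrays, so differences that start from low values may understate the change in RNA. In these bulk samples, fewer cells expressing a gene and less RNA per cell cannot be told apart. The number of arrays limits the precision. In the values, 3 exact linear relations tie arrays to each other, and with the vector labels they were used to divide the arrays into 4 sets. The fit does not account for the residuals that these relations remove. The p-values are therefore too small, and a call near the threshold is uncertain. WT DICER1 was the only group with both vectors, and its PGKnvA and ENvA means were equal within 7.5e-05 for every gene. The vector term of the fit was thus fixed at 0 and widened standard errors without adjusting any value.

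The 4 member hairpins lie in the stretch of the locus from Mir379 to Mir369, between 170.8 and 199.5 kb downstream of the Meg3 start. In GRCm38.p6 their hairpins span chr12:109711803-109711863 (Mir380), chr12:109724313-109724391 (Mir300), chr12:109733771-109733846 (Mir382) and chr12:109740510-109740577 (Mir377), all on the plus strand. Their mature products, which guide silencing of mRNAs through the seed (bases 2 to 8, in capitals), are shown because these hairpins carried some of the largest differences described below. Sequences are from RefSeq (GRCm38.p6), 5′ to 3′, and all 4 hairpins matched its miRNA table.
miR-377-5p: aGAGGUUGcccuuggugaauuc
miR-377-3p: aUCACACAaaggcaacuuuugu
miR-382-5p: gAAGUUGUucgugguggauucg
miR-382-3p: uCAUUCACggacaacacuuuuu
miR-380-5p: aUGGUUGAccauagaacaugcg
miR-380-3p: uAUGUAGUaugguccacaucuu
miR-300-5p: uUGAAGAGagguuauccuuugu
miR-300-3p: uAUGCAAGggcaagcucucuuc
The 8 seeds all differ from each other. Only that of miR-377-5p was shared with a mature miRNA of another gene in the table (1 other, miR-672-5p), and none with another hairpin of the locus. The arrays read RNA from the hairpin's stretch. No source used here says whether that is the primary transcript, the hairpin or the mature miRNA.

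The comparison of the parental lines asked what differs between ES cells without and with Dicer. In Dicer-null cells the maternal non-coding RNAs and the 4 member hairpins fell, and the paternal genes Dlk1 and Dio3 were not called. Dio3 averaged below 6.42 in both lines, so a fall of Dio3 could be missed. Of the 8 members, 6 fell and 0 rose, where 19.8% of all genes were called lower in this comparison and 22.4% higher. The median change of the members was -1.68, against 0.02 over all genes. The members were chosen with earlier results of these data known, so this count and median are descriptions and no independent support. The 4 member hairpins had the largest falls among the 40 hairpins of the locus, and the 36 others had a median change of -0.21.

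Meg3, a long non-coding RNA and the founder transcript of the maternal run (chr12:109540996-109571729, GRCm38.p6, plus strand), read 6.49, 6.32 and 6.23 in Dicer-null cells, against 9.37 and 9.46 in the Dicer WT line. The groups did not overlap, and the gap between their nearest arrays exceeded the spread within either group. The share of all genes for which these lines do not overlap was not computed, here and for the genes below. Meg3 fell by 3.07 (log2; SE, 0.156; adjusted p = 5.1e-15 in limma), which was the fall of rank 4 among the 19938 genes. Within array sets 1 and 2, which held both lines, the differences were -2.88 and -3.18. Set 1 held 1 array of each line, and set 2 held 2 Dicer-null arrays and 1 Dicer WT array. Its promoter is shown because Meg3 is the member whose own start site lies nearest the imprint control region, with the motif TGACGTCA, the palindromic cyclic-AMP response element, in capitals (RefSeq, chr12:109540746-109541045, GRCm38.p6, plus strand).
Meg3 promoter: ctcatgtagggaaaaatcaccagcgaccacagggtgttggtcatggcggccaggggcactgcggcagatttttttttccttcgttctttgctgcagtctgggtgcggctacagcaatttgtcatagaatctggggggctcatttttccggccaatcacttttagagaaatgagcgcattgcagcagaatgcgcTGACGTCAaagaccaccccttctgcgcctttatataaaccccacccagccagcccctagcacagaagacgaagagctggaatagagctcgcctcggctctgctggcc
This window of 300 bases runs from 250 bases before the start to 50 after it and holds 13 CG dinucleotides. The motif begins 57 bases before the start. It was present, on either strand, in 1.79% of 32851 promoter windows of the same length. Of the 2 windows listed for Meg3 only this 1 held it, and none of those of Dlk1, Rian, Mirg and Dio3 did. A match in these letters is a description of the window.

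Rian, the maternal RNA that hosts small nucleolar RNAs (chr12:109603945-109661716), read 5.01, 5.17 and 5.02 in Dicer-null cells, against 7.16 and 6.97 in the Dicer WT line. It fell by 2.0 (SE, 0.186; adjusted p = 8.89e-10 in limma), and the groups did not overlap. Within array sets 1 and 2 the differences were -2.15 and -1.87. A probe set annotated to Rian together with a second gene read 5.33, 5.57 and 5.2 in Dicer-null cells, against 8.64 and 8.50 in the Dicer WT line. The probe set annotated to Mirg and Mir410 read 4.0, 4.06 and 3.8 in Dicer-null cells, against 6.28 and 6.18 in the Dicer WT line. Both shared probe sets were thus lower on every Dicer-null array, like Rian itself.

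Among the member hairpins, Mir377 showed the widest gap. It read 3.70, 3.67 and 3.57 in Dicer-null cells, against 6.81 and 7.09 in the Dicer WT line, and fell by 3.31 (SE, 0.0899; adjusted p = 1.73e-20 in limma), the fall of rank 2 among all genes. Mir382 read 4.13, 4.47 and 4.31 in Dicer-null cells, against 6.77 and 6.35 in the Dicer WT line, and fell by 2.25 (SE, 0.12; rank 18). Both read below 6.42 in Dicer-null cells, in the lowest 30% of gene means.
Mir380, a hairpin reported to repress p53, read 3.32, 3.64 and 3.32 in Dicer-null cells, against 4.74 and 4.85 in the Dicer WT line. It fell by 1.37 (SE, 0.107), rank 130. Mir300 read 3.91, 3.86 and 4.12 in Dicer-null cells, against 5.15 and 5.25 in the Dicer WT line, and fell by 1.24 (SE, 0.129), rank 188. Mir380 and Mir300 thus read below 6.42 in both lines. The adjusted p of the 3 hairpins Mir382, Mir380 and Mir300 lay between 1.23e-14 and 7.27e-09 in limma. The 2 lines did not overlap for any of them, and the share of all genes separating in this way was not computed.

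**Figure D1:**
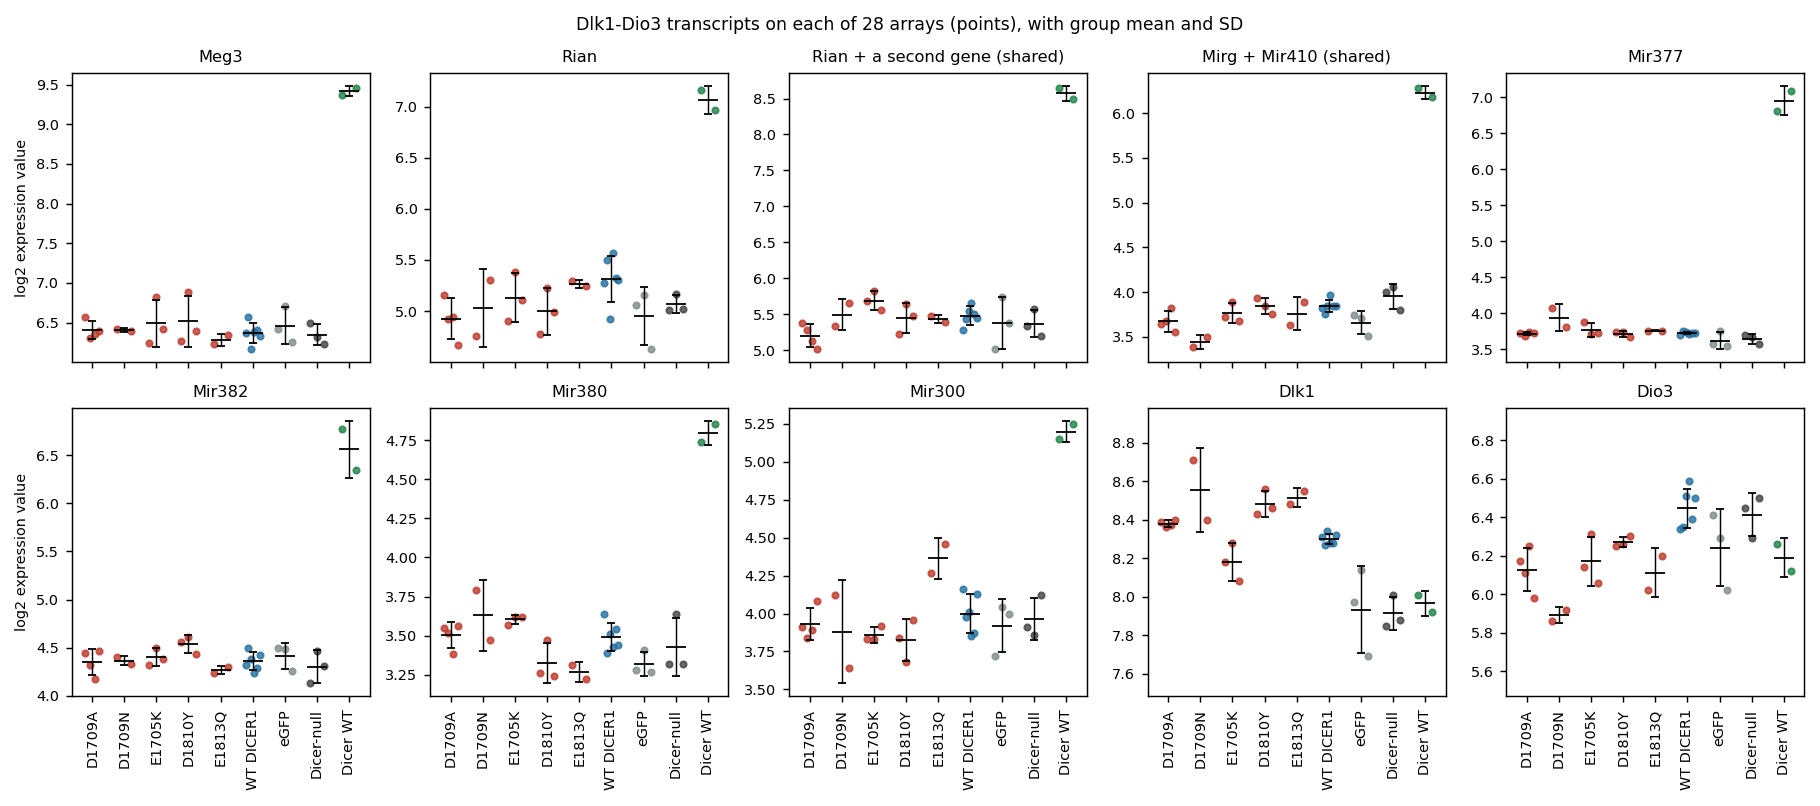
Log2 expression values (y axis) of the 8 members and the 2 shared probe sets on each array, by group (x axis); points are arrays, and dashes with bars are the group mean and SD. The Dicer WT line stands above all other groups for Meg3, Rian, the shared probe sets and the 4 hairpins, whereas Dlk1 and Dio3 differ by less than 1 between groups.

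Dlk1, a transmembrane protein related to Notch ligands (protein-coding, chr12:109452485-109463336), read 7.85, 8.01 and 7.88 in Dicer-null cells, against 8.01 and 7.92 in the Dicer WT line. The groups overlapped, and the difference was -0.05 with a 95% interval from -0.25 to 0.14 (adjusted p = 0.722 in limma). Dio3, the deiodinase that inactivates thyroid hormone (protein-coding, chr12:110279230-110281097), read 6.45, 6.29 and 6.50 in Dicer-null cells, against 6.26 and 6.12 in the Dicer WT line. Its difference was 0.23, with an interval from 0.00 to 0.45 (adjusted p = 0.101 in limma). Rtl1, the retrotransposon-derived gene of the paternal set that lies between them, differed by 0.25 (SE, 0.117; adjusted p = 0.0879 in limma). In Dicer-null cells and the Dicer WT line Dio3 averaged 6.41 and 6.19, and Rtl1 6.49 and 6.24. These values lay near or below the 6.42 level, so a fall of either gene could be missed. Of these paternal genes only Dlk1 read well above that level, and whether Dio3 and Rtl1 were expressed was not tested. Whether the maternal and paternal genes differed from each other in their change was not tested.

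The other hairpins of the locus were described along its length. Of 36 other hairpins with a probe set of their own, 17 fell and 0 rose, with a median change of -0.21. In the stretch from Mir379 to Mir369, which the members belong to, 20 of 30 hairpins fell, members included, with a median of -0.41. In the upstream stretch from Mir673 to Mir370, which lies near Rtl1 and Rian, 1 of 10 fell, Mir665 (-0.54), with a median of -0.15. Of 260 genes with miRNA symbols outside the locus, 46 fell and 10 rose, with a median of -0.03. They are mostly hairpins but include a few miRNA host genes, such as Mir17hg (-0.65, called).
Mir323 (-0.83), Mir679 (-0.81), Mir134 (-0.80), Mir329 (-0.69) and Mir541 (-0.55) changed most among the non-members that fell, and Mir134 is known for its role at neuronal dendrites. Mir323, Mir329 and Mir541 averaged below 6.42 in both lines. Several members of the stretch lay near their neighbours on the chromosome and still differed in size of change. Mir382 and Mir134 lie at 192.8 and 193.1 kb from the Meg3 start, and fell by 2.25 and 0.80. Mir409 and Mir412, at 202.2 and 202.3 kb, differed by 0.04 and -0.01 and were not called.

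**Figure D2:**
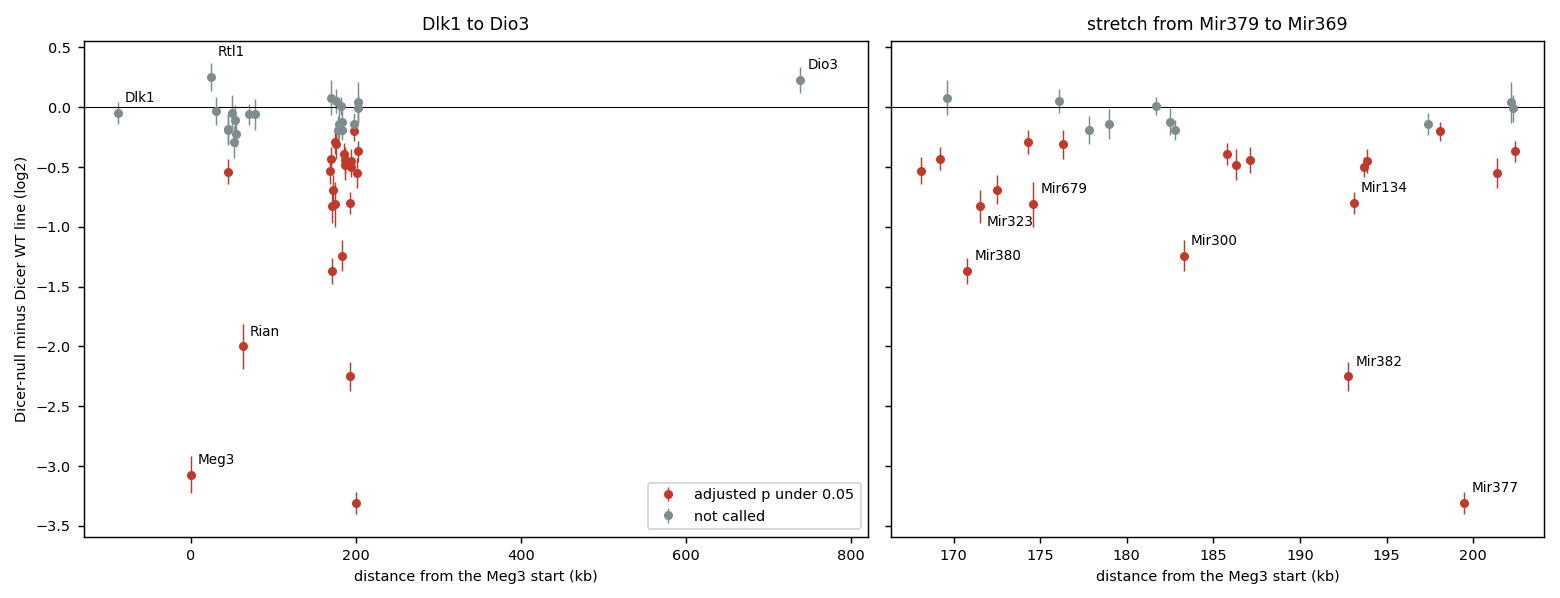
Difference between Dicer-null cells and the Dicer WT line (y axis, log2, bars are SE) of the genes and hairpins of the locus against distance from the Meg3 start (x axis, kb), over the whole locus (left) and the stretch from Mir379 to Mir369 (right); red points were called and grey points were not. Meg3, Rian and most hairpins of the right panel lie below 0, and Dlk1, Rtl1 and Dio3 lie near it.

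**Figure D3:**
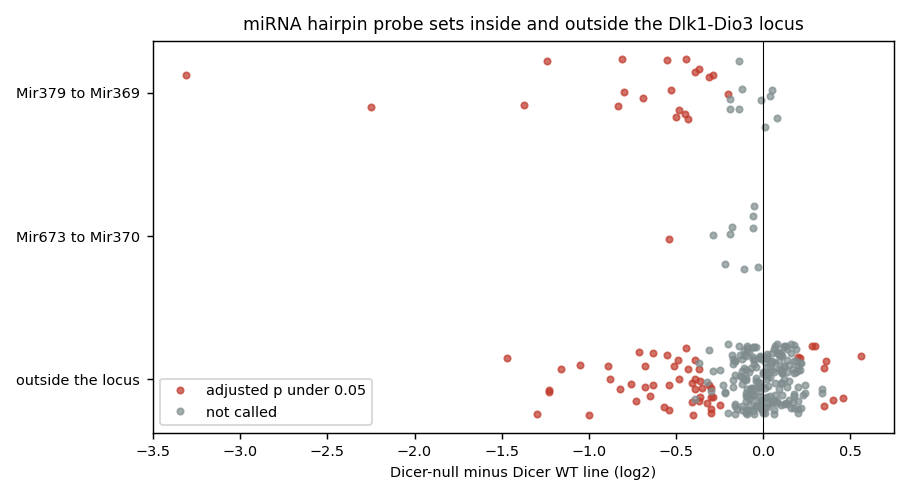
Difference between Dicer-null cells and the Dicer WT line (x axis, log2) of single miRNA hairpin probe sets, grouped by stretch (rows). Each point is a hairpin, spread vertically at random, red if called and grey if not. A few points of the row outside the locus are miRNA host genes. Hairpins from Mir379 to Mir369 reach -3.31, whereas those from Mir673 to Mir370 lie between -0.54 and -0.03.

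The low levels of the Dicer-null line were shared by every transduced group. For Meg3, Rian, the 4 hairpins and both shared probe sets, each of the 26 arrays from Dicer-/- cells, whatever the transgene, lay below both arrays of the Dicer WT line, where 6.80% of all genes did so. Over these 26 arrays Meg3 ranged from 6.17 to 6.88 with a median of 6.38, and its lowest Dicer WT array stood 2.49 above the highest of them. The gap was 2.74 for Mir377, 1.74 for Mir382, 1.40 for Rian, 0.95 for Mir380 and 0.70 for Mir300. Among the 8 groups of Dicer-/- origin the means of Meg3 ran from 6.52 in D1810Y to 6.29 in E1813Q, and each group overlapped with its neighbour in that order. Over the same groups the means of Mir382 ran from 4.53 to 4.27, with every neighbour overlapping. Those of Mir377 ran from 3.94 to 3.62, and the neighbours E1813Q and WT DICER1 did not overlap. How often neighbours separate among all genes was not counted.

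The eGFP vector was compared with untransduced Dicer-null cells as a control for transduction. None of the 8 members was called (0 at an unadjusted p under 0.05 in limma), where 34.3% of all genes were called in either direction. Meg3 read 6.42, 6.71 and 6.26 with eGFP, against 6.49, 6.32 and 6.23 without a vector. The groups overlapped, and the difference of 0.12 had an interval from -0.17 to 0.40. The other members differed by between -0.17 (Dio3) and 0.11 (Mir382). None of the 36 other hairpins was called (1 at an unadjusted p under 0.05).

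Wild-type DICER1 against eGFP asked what returning the enzyme restores. Dlk1 rose, and no other member was called, where 23.1% of all genes were called higher and 21.0% lower. Dlk1 read between 8.27 and 8.34 with WT DICER1 (median, 8.30; n = 6), against 7.97, 8.14 and 7.69 with eGFP. Every WT DICER1 array lay above every eGFP array, as for 22.3% of all genes. The rise was 0.37 (SE, 0.0791; adjusted p = 0.000321 in limma), and in the set of arrays that held both groups it was 0.37 (2 WT DICER1 and 3 eGFP arrays).
No maternal member or member hairpin with a probe set of its own was called. Meg3 read between 6.17 and 6.57 with WT DICER1 (median, 6.37), against 6.42, 6.71 and 6.26 with eGFP, with a difference of -0.09 and an interval from -0.36 to 0.18. Between the parental lines Meg3 fell by 3.07. Mir377 differed by 0.10 (interval, -0.05 to 0.26), Mir382 by -0.06 (-0.26 to 0.15), Mir380 by 0.17 (-0.01 to 0.36) and Mir300 by 0.08 (-0.14 to 0.30). Rian read 0.36 higher with WT DICER1 than with eGFP (interval, 0.04 to 0.68; adjusted p = 0.0624 in limma), and Dio3 0.21 higher (0.02 to 0.39; adjusted p = 0.0687). Without the vector term both were called, with the same sizes. The probe set of Mirg and Mir410, which was not tested, read 3.76 to 3.97 on WT DICER1 arrays, against 3.75, 3.71 and 3.51 with eGFP, so that every WT DICER1 array lay higher, as for 22.3% of all genes. None of the 36 other hairpins was called, 2 having an unadjusted p under 0.05.

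Set directly against the Dicer WT line, cells with WT DICER1 differed in all 8 members, 6 of which fell and 2 rose, where 18.0% of all genes were called lower and 20.6% higher. The falls were those of Mir377 (-3.23), Meg3 (-3.04), Mir382 (-2.2), Rian (-1.75), Mir380 (-1.30) and Mir300 (-1.2; adjusted p between 7.47e-20 and 7.62e-09 in limma). Dlk1 rose by 0.33 (SE, 0.0896; adjusted p = 0.00373 in limma), a call lost without array 2 of the Dicer WT line (change, 0.29 to 0.38 over single omissions). Dio3 rose by 0.26, at an adjusted p of 0.0499 in limma that is too small by the reason given above, and this call was lost under 18 of 28 single-array omissions (change, 0.19 to 0.32). Of the 36 other hairpins 21 fell and 0 rose. This comparison shares the Dicer WT arrays with that of the parental lines and is not independent of it.

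**Figure D4:**
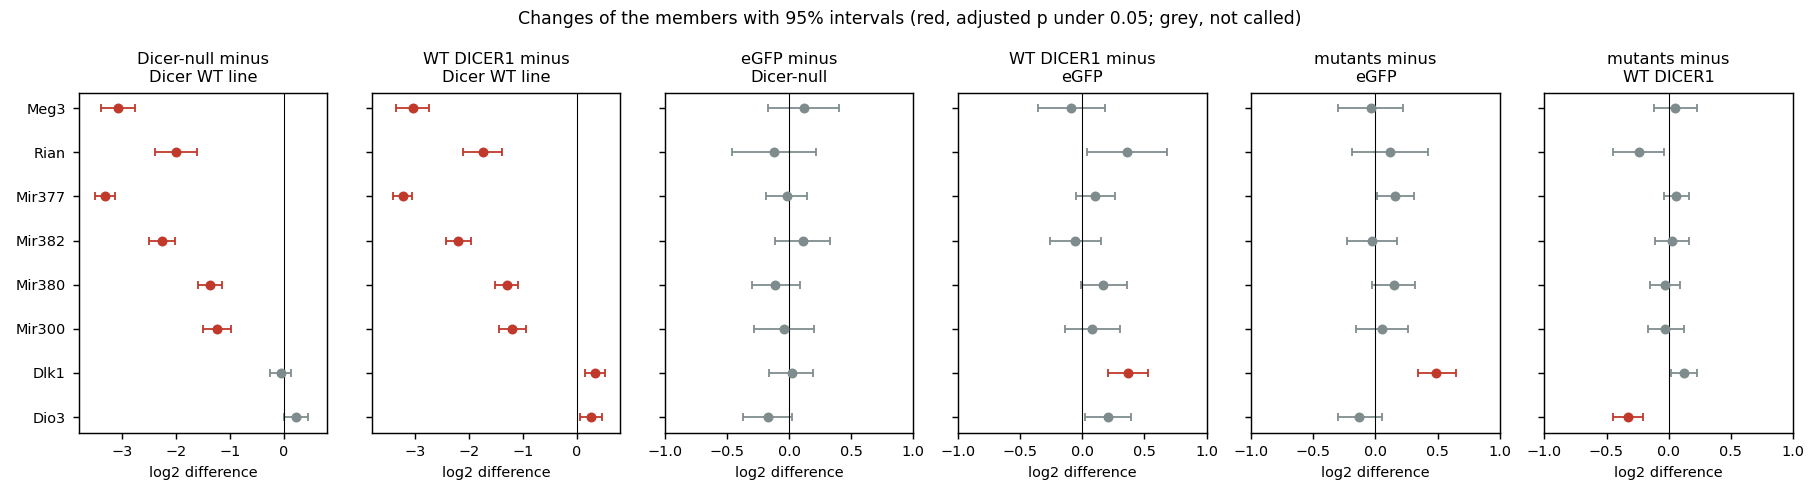
Log2 differences (x axis) of the 8 members (rows) in 6 comparisons (panels, titled first group minus second), with 95% intervals, red if called and grey if not; the first 2 panels have a wider axis than the rest. Meg3, Rian and the hairpins lie far below 0 against the Dicer WT line in both left panels, and in the right 4 panels only Dlk1 (against eGFP) and Dio3 (mutants against WT DICER1) are called.

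The 5 mutants together were compared with eGFP and with WT DICER1. Against eGFP, Dlk1 rose by 0.49 (SE, 0.0754; adjusted p = 5.4e-06 in limma), the only member called, where 21.6% of all genes were called higher and 17.8% lower. Dlk1 ranged from 8.08 to 8.71 over the 14 mutant arrays (median, 8.40), against 7.97, 8.14 and 7.69 with eGFP, and 1 eGFP array lay within the mutants' range. Within the set of arrays that held both, the difference was 0.43 (7 mutant and 3 eGFP arrays). Meg3 differed by -0.04 (interval, -0.30 to 0.22), with 14 mutant arrays between 6.23 and 6.88. The mutants and WT DICER1 thus each had Dlk1 above eGFP, in comparisons that share the eGFP arrays. Of the 36 other hairpins 1 was called, Mir329 (-0.30).

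Dio3 was lower in the mutants than with WT DICER1. It was the only member called in that comparison, where 22.1% of all genes were called lower and 24.1% higher. Dio3 read 6.17, 6.11, 6.25 and 5.98 with D1709A, 5.86 and 5.92 with D1709N, 6.14, 6.31 and 6.06 with E1705K, 6.25, 6.26 and 6.30 with D1810Y, and 6.02 and 6.2 with E1813Q. It read between 6.34 and 6.59 with WT DICER1 (median, 6.45). Each of the 14 mutant arrays lay below each of the 6 WT DICER1 arrays, as for 5.83% of all genes. Dio3 averaged 6.25 over all arrays, below the 6.42 level, and is not tested when low genes are left out. The fall was 0.33 (SE, 0.059; adjusted p = 3.33e-05 in limma), and within the 4 array sets the differences were -0.18, -0.21, -0.60 and -0.44. In order, these sets held 2, 7, 1 and 4 mutant arrays against 1, 2, 1 and 2 of WT DICER1. The eGFP arrays (6.41, 6.29 and 6.02) lay on both sides, and the mutants differed from eGFP by -0.13 (interval, -0.30 to 0.05).

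By single mutant, Dio3 fell by 0.56 in D1709N (SE, 0.119; adjusted p = 0.000719 in limma), where 13.6% of all genes were called lower. It fell by 0.33 in E1813Q (adjusted p = 0.0348; background, 14.6%), by 0.32 in D1709A (0.00383; 16.1%) and by 0.27 in E1705K (0.0189; 14.9%). The E1813Q call was lost without its array 1 or without array 5 or 6 of WT DICER1, and when only these groups were fitted (change, -0.42 to -0.24 over single omissions). The E1705K call was lost without its array 1 or 3 or without array 3 or 4 of WT DICER1 (change, -0.34 to -0.22). In D1810Y the difference was -0.17 (interval, -0.36 to 0.01; adjusted p = 0.14), and none of the members was called there (1 at an unadjusted p under 0.05), where 39.4% of all genes were.
Rian read 5.16, 4.92, 4.94 and 4.67 with D1709A, against 4.92 to 5.57 with WT DICER1 (median, 5.31). The groups overlapped, and Rian was 0.39 lower (SE, 0.144; adjusted p = 0.0371 in limma), where 16.1% of all genes were called lower. The call was lost without array 2, 3 or 4 of D1709A, without array 1, 2 or 4 of WT DICER1 and when only these 2 groups entered the fit (change, -0.52 to -0.31 over single omissions). Over the 5 mutants together Rian differed by -0.24 (adjusted p = 0.0513) and Dlk1 by 0.12 (adjusted p = 0.052), and both were called without the vector term. Dlk1 averaged 8.55 with D1709N, 8.52 with E1813Q, 8.48 with D1810Y, 8.38 with D1709A and 8.18 with E1705K, against 8.30 with WT DICER1, with adjusted p between 0.0662 and 0.451. Mir300 read 4.27 and 4.46 with E1813Q, against 3.85 to 4.16 with WT DICER1, a difference of 0.36 that was not called (adjusted p = 0.0551 in limma). Of the 36 other hairpins 4 fell in the mutants, Mir409 (-0.24), Mir154 (-0.19), Mir539 (-0.15) and Mir668 (-0.14), and 0 rose. Mir409, Mir154 and Mir539 averaged below 6.42 in the mutants and with WT DICER1.

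Genes with the profile most like that of Meg3 were sought by Pearson correlation of the 9 group means, among 2988 genes whose means spanned at least 1. Mir382 ranked 1 (r = 0.9989) and Mir377 ranked 2 (0.9935), with Rian at rank 6 (0.9694), Mir380 at rank 8 and Mir300 at rank 35. From outside the locus, Nlrp4a, an oocyte-expressed gene of the NLRP family (0.9889), and H1f10, a linker histone (0.9763), ranked 3 and 5. Nlrp4a averaged 3.32 to 3.84 in the other groups and 6.36 in the Dicer WT line, and H1f10 averaged 9.36 to 9.64 and 10.73. Since the Dicer WT line stands apart from 8 similar groups, these correlations describe that single contrast and share its arrays.
The genes most like Dlk1 were Cdx2, a trophoblast and intestinal homeobox factor (0.9773), Antxr2 (0.965), Ano10 (0.9592), Axin2, a feedback inhibitor of Wnt signalling (0.9554), Tpm2, a tropomyosin (0.9554), and Mmd2 (0.9551). These ranks depended on the averaging. Over the 28 single arrays Cdx2 ranked 1 (0.917) and Axin2 2 (0.884), while Mmd2 ranked 6, Tpm2 12, Ano10 15 and Antxr2 19. The genes named for Meg3 had ranks between 1 and 8 over the single arrays, with Mir377 at 1 and Rian at 8. The exception was Mir300, at rank 25 (0.829). Meg3 and Dlk1 had r = -0.4101 over the 9 means.

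Regulators of the imprint were taken as a list of 27 measured genes, among them DNA methyltransferases, TET enzymes and proteins that protect methylation. In Dicer-null cells 11 rose (40.7%) and 11 fell (40.7%) relative to the Dicer WT line, with a median change of -0.01, where 22.4% and 19.8% of all genes did. Dnmt3l, a cofactor of the de novo methyltransferases (-3.11), Dppa3, which protects imprints in the early embryo (-2.79), and Atrx, a chromatin remodeller (-2.07), fell. Tet3, a dioxygenase that oxidises methylcytosine, rose by 1.32. With WT DICER1 against eGFP, 12 rose (44.4%) and 9 fell (33.3%), where 23.1% and 21.0% of all genes did (median, 0.00). Dppa3 rose by 2.48 and Dnmt3l by 2.21, while Dnmt3b fell by 0.70 and Tet3 by 0.63.
In the mutants against eGFP, 8 rose (29.6%) and 9 fell (33.3%), where 21.6% and 17.8% of all genes did, and Dppa3 (2.54), Dnmt3l (2.54) and Dnmt3a (0.96) rose. Meg3 was called in neither comparison with eGFP, with the intervals given above. In the mutants against WT DICER1, 12 rose (44.4%) and 10 fell (37%), where 24.1% and 22.1% of all genes did, with Dnmt3b (1.11), Aff3, a factor that binds the locus' control region (0.93), and Dnmt3a (0.82) higher and Arid4b (-0.66) lower. In eGFP cells against Dicer-null cells, 14 rose (51.9%) and 5 fell (18.5%), where 14.7% and 19.6% of all genes did, with Atrx (2.25), Dnmt3b (1.25), Dnmt3l (0.76) and Arid4b (0.71) higher.

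Imprinted genes of other loci moved in both directions. The shares of all genes called in each comparison are those just given. Of 24 measured, which include the fibroblast marker Dcn, 9 rose (37.5%) and 9 fell (37.5%) in Dicer-null cells relative to the Dicer WT line, with a median of 0.19. Plagl1, a zinc-finger factor (2.95), and Nnat, a neuronal proteolipid (1.39), rose, and Phlda2, which limits placental growth (-1.84), and Sgce, a sarcoglycan (-1.08), fell. With WT DICER1 against eGFP, 10 rose (41.7%) and 5 fell (20.8%; median, -0.02), among them Sgce (1.96), Phlda2 (1.76) and Airn, a silencing RNA of the Igf2r cluster (1.35), which rose, and Plagl1 (-1.28), which fell. In the mutants against eGFP 15 rose (62.5%) and 4 fell (16.7%; median, 0.32), and against WT DICER1 15 rose (62.5%) and 5 fell (20.8%; median, 0.14), with Ascl2 (1.37), Mest (0.92), Nnat (0.79) and Peg3 (0.70) the largest rises. In eGFP cells against Dicer-null cells 7 rose (29.2%) and 5 fell (20.8%).

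The coding genes that flank the locus, listed together with Rtl1 inside it, moved in both directions. Of 19 measured, 5 rose (26.3%) and 4 fell (21.1%) between the parental lines (median, 0.04), near the 22.4% and 19.8% of all genes. The named changes lay between -0.65 (Eml1, a microtubule-binding protein) and 0.50 (Evl, an actin regulator). Wars, a tryptophanyl-tRNA synthetase (-0.54), and Wdr25 (-0.34) were lower. In eGFP against Dicer-null cells 3 rose and 3 fell, with WT DICER1 against eGFP 5 and 5, in mutants against eGFP 4 and 5, and in mutants against WT DICER1 6 and 6. The largest of these were Ppp2r5c, a phosphatase subunit (-0.57, eGFP against Dicer-null), and Dync1h1, the dynein heavy chain (-0.51, WT DICER1 against eGFP). The shares of all genes in these comparisons are those given for the imprint regulators.
Notch, thyroid hormone and p53 partners of Dlk1, Dio3 and Meg3 formed a list of 21 genes, of which 18 were measured. The gene of p53 itself, Trp53, was not among these. Between the parental lines 6 rose (33.3%) and 2 fell (11.1%; median, 0.16), with Hey1, a Notch target (-1.16), Mdm2, the p53 ubiquitin ligase (0.74), Notch2 (0.54) and the ligand Jag1 (0.42) named by size. With WT DICER1 against eGFP, where Dlk1 rose, 3 rose (16.7%) and 4 fell (22.2%), with Notch4 (-0.64), Notch3 (0.57), Notch2 (-0.50) and Notch1 (-0.45), all receptors. In the mutants against WT DICER1 9 rose (50%) and 2 fell (11.1%), where 24.1% and 22.1% of all genes did. The rises were led by the ligands Dll3 (0.74), Jag2 (0.53) and Dll1 (0.49). In the mutants against eGFP 6 rose (33.3%) and 3 fell (16.7%), and in eGFP against Dicer-null cells 1 rose (5.56%) and 5 fell (27.8%). For the other comparisons of this list, too, the shares of all genes are those given for the imprint regulators.

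Markers of other cell types were examined next, and their counts stand beside the same shares of all genes as above. Of 14 fibroblast or feeder markers, 1 rose (Twist1, 0.45) and 1 fell (Pdgfrb, -0.45) in Dicer-null cells against the Dicer WT line. Their mean lay between 6.23 and 6.24 on Dicer-null arrays, against 6.18 to 6.28 on Dicer WT arrays. Of these markers 8 of 14 reached 6.42 in each line, and their part in the Meg3 values was not tested. None was at 0, as expression values of these arrays have no true zero, and Lum averaged 4.04 in Dicer-null cells and 3.95 in the Dicer WT line.
Beside the rise of Dlk1, 7 of the 14 markers rose and 2 fell with WT DICER1 against eGFP, led by Postn (2.40) and Pdgfrb (1.30), with means of 6.62 to 6.75 on WT DICER1 arrays, against 6.27 to 6.42 on eGFP arrays. In the mutants against eGFP 5 rose and 2 fell. Of 6 trophoblast markers 5 rose and 1 fell in each of these comparisons, Gata3 by 1.17 with WT DICER1 and 0.81 in the mutants. The marker that fell was Elf5 (-0.71 and -0.84). Of 6 endoderm markers 3 rose with WT DICER1 and 2 in the mutants, Gata6 by 1.15 and 0.33 and Dab2 by 0.95 and 1.28. The part of these markers in the Dlk1 values was not tested. Beside the fall of Dio3 in the mutants against WT DICER1, 7 of 9 ES cell markers fell (77.8%) and 1 rose, where 22.1% and 24.1% of all genes did. Zfp42 (-0.33), Klf4 (-0.27), Esrrb (-0.25) and Nanog (-0.18) were lower. The marker that rose was Pou5f1 (0.16), which averaged 12.63 with WT DICER1 and 12.72 to 12.92 in the mutants. Of 14 fibroblast markers 1 rose (Dcn, 0.45) and 5 fell (Postn, -1.49, the largest). Of 6 endoderm markers 1 rose (Dab2, 0.34) and 3 fell (Gata6, -0.82, the largest). Of 6 trophoblast markers 2 rose (Hand1, 0.40, and Cdx2, 0.29) and 2 fell (Eomes, -0.85, and Gata3, -0.36). Of 4 mesoderm markers 3 rose, Mixl1 by 0.38, and of 4 neural markers none was called (0 at an unadjusted p under 0.05 in limma). The part of these markers in the Dio3 values was likewise not tested. Between the parental lines 2 of 4 neural markers rose, Pax6 by 1.40 and Nes by 1.29, and 1 of 4 mesoderm markers (Kdr, 0.73). Of 6 trophoblast markers 1 rose (Hand1, 0.38) and 2 fell (Eomes, -1.45, and Tfap2c, -0.56) there. Of 6 endoderm markers 1 rose (Gata4, 0.40) and 1 fell (Sox7, -0.79).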

How the data were processed

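The authors deposited log2 expression values per probe set, which per the submitters' processing notes were made with RMA (background correction, normalization and probe summary) and Partek 6.6. No source used here gives their settings. Of 35556 probe sets, 21789 had 1 gene symbol, 1621 several and 12146 none in the platform annotation. Each of 19938 symbols was read by its single-symbol probe set with the highest mean, with no expression filter. Of the 9 members, 8 had such a row, and each had only 1, so that members were counted out of 8 where 9 had been planned.

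limma 3.58.1 (R 4.3.3; Python 3.11.15, pandas and matplotlib for tables and figures) fitted 9 group coefficients and a PGKnvA vector term to all 28 arrays, with a mean-variance trend and 18 residual degrees of freedom, more than the exact relations between arrays leave, so that p-values are too small. The vector term was estimated as 0, since these relations made both vectors of WT DICER1 equal. Tests were two-sided. The mutant contrast weighted 5 groups equally. The fit was tested on simulated data. Array sets 1 and 3 were inferred from exact linear relations in the values. Set 4 was taken as all PGKnvA arrays by their labels, of which a relation covers only those of WT DICER1, and set 2 as the remaining arrays. Alternatives were scaling, a low-value filter, other probe summaries, models and left-out arrays. Named genes were all members, up to 6 called locus hairpins and up to 4 called genes of each list by size in each of the first 5 comparisons, and the 6 genes most like Meg3 and Dlk1, of which 1 is not reported here. Members and lists were chosen with earlier results of these data known. Gene positions and sequences are from RefSeq GRCm38.p6.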

Additional observations from a re-analysis of the deposited data

Results flagged for a closer look

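In 80 direct contrasts between mutants (8 members in 10 pairs), 3 were called, each adjusted over all genes of its pair in limma. Mir300 was lower in D1709N than in E1813Q (-0.48, SE 0.142, adjusted p = 0.0359), with arrays at 4.12 and 3.64 in D1709N and 4.27 and 4.46 in E1813Q, where 7.6% of all genes differed. It was also lower in D1810Y than in E1813Q (-0.54, SE 0.178, adjusted p = 0.0352), which used the other vector, where 19% of all genes differed. Dlk1 was lower in E1705K than in D1810Y (-0.30, SE 0.0845, adjusted p = 0.0185), with 8.18, 8.28 and 8.08 in E1705K and 8.43, 8.56 and 8.46 in D1810Y, where 10.7% of all genes differed. None of these groups overlapped, but the share of all genes that separate in this way was not computed. In groups of 4 or more arrays, no array stood far from the rest of its group in any of 20 member-by-group checks.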

How the results depend on the processing

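The fall of 6 members between the parental lines held under 28 of 28 single-array omissions and 8 of 9 other alternatives. Leaving out low genes removed all members but Meg3 and Dlk1 from the test, and counts of called members then were 1 between the parental lines, 2 for WT DICER1 against the Dicer WT line, and 0 for D1709A, D1709N, E1705K and E1813Q against WT DICER1. For the mutants against WT DICER1 the count stayed at 1, but with Dio3 untested it was a rise of Dlk1 in place of the fall of Dio3. Other locus hairpins called between the parental lines numbered 4 with that filter, and 14 to 19 under the remaining alternatives. Without the vector term the counts were 3 for WT DICER1 against eGFP, 2 for mutants against eGFP, 3 for mutants against WT DICER1, and 3, 1 and 3 for D1709N, D1810Y and E1813Q. With only the compared groups fitted they were 2 for mutants against WT DICER1, and 1, 1 and 0 for D1709A, D1810Y and E1813Q. Centring each array gave 2 for mutants against WT DICER1, and leaving out the mean-variance trend gave 2 for mutants against eGFP. Over single-array omissions the counts ranged from 1 to 2 for WT DICER1 against eGFP, mutants against eGFP and D1709A, from 1 to 3 for mutants against WT DICER1 and D1709N, from 0 to 1 for E1705K and D1810Y, and from 0 to 2 for E1813Q; the parental lines stayed at 6, eGFP against Dicer-null at 0, and WT DICER1 against the Dicer WT line lay between 6 and 8. The vector term was 0 and only widened standard errors, which is what its removal changed. Other causes were not tested. No called change of a member reversed its sign.

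Whether replicate numbers pair the samples cannot be decided here, since the exact relations force some deviations of same-numbered arrays to cancel. Deviations of same-numbered arrays correlated with a median of -0.0243 over 88 pairs, and 8 of 28 arrays correlated best with their own number. With a replicate block, which leaves out the vector term, 2 members were called for E1813Q, and no other count of called members moved by over 1.5 times. Further probe sets of a member could not be tried, since each had 1. Group levels of members moved by less than 1 SD in 67 of 72 cases under centring. The small number of arrays limits the precision, and the exact relations between arrays make p-values too small. Likeness to Meg3 and Dlk1 over 28 arrays gave other ranks, as described above.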
